A study of Mus musculus with 3 samples.

Results

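Ion channels and the proteins of gap junctions set the membrane potential, calcium entry and electrical coupling of a cell, and 39 such genes were followed in sorted macrophages of the mouse heart, kidney and liver. The 39 genes were chosen by name and by measured level. The names were those of potassium channels (Kcn), TRP channels of the C, M and V groups, voltage-gated calcium (Cacn) and sodium (Scn) channels, CLC chloride proteins (Clcn), connexins (Gj), HCN channels, Piezo channels and pannexins (Panx). A gene was kept where its longest coding transcript reached 0.5 RPKM in any library, where RPKM is the number of reads per 1000000 reads and per kilobase of exon length. The rule leaves out 1 gene of such a name, and of the 191 others 39 passed, out of 12629 genes at this level and 24453 gene symbols in all.

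Each tissue is represented by 1 library, from C57BL/6 mice aged 8 weeks with no treatment or mutation named, so the groups differ by tissue alone as far as the labels go. The heart library is labelled cardiac tissue macrophages, the kidney library renal tissue macrophages and the liver library Kupffer cells, the macrophages of the liver sinusoids. All were sorted as CD11b+ F4/80+ cells without Ly6G and Ly6C, and how many animals were pooled is not given in the sources used here. With no replicates there is no estimate of the spread between animals, no difference was tested, and every comparison describes these 3 libraries. Intervals are exact 95% Poisson intervals of recovered read numbers, or for ratios exact Clopper-Pearson intervals of the share of reads, and cover counting error only. A fold against a library with 0 reads is a lower bound, computed against 3 reads in that library. Summed over all deposited transcripts, the recovered reads came to 14460610 (heart), 15550834 (kidney) and 16743405 (liver). A read shared by several transcripts of a gene counts more than once in these sums. With 1 transcript per gene the reads came to 8751978 (heart), 9485368 (kidney) and 10373696 (liver). In these bulk samples, fewer cells of a type and less RNA per cell cannot be told apart.

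As background, macrophages are not electrically excitable cells and use channels for other ends. Inward rectifier and tandem-pore potassium channels hold the resting potential, calcium-permeable TRP channels respond to heat, oxidants or stretch, and CLC proteins of endosomes and lysosomes exchange chloride for protons during acidification. Connexins join neighbouring cells through gap junctions, and Cx43 in cardiac macrophages of the mouse is known for coupling them to cardiomyocytes. The same gene families also serve as defining genes of other cells, such as connexins in endothelium and channel subunits in the renal tubule.

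The 8 macrophage markers checked, among them Adgre1, Csf1r and Cd68, were present in every library, with summed levels of 2029 RPKM (heart), 2017 RPKM (kidney) and 1944 RPKM (liver). The 6 Kupffer cell markers, all present in the liver library, summed to 190 RPKM (heart), 2.88 RPKM (kidney) and 2296 RPKM (liver). The heart sum came mostly from Timd4 (148 RPKM) and Vsig4 (41.5 RPKM), while Clec4f, Cd5l and Marco had 0 reads in the heart and kidney. Markers of other cells were present too and differed between libraries. The 11 distal nephron and collecting duct markers were all at or above 0.5 RPKM in the kidney library, with a summed level of 511 RPKM there, 40.5 RPKM in the heart and 30.8 RPKM in the liver library. Fxyd2 was the only gene of that list at this level in the heart (40.5 RPKM) and liver (30.8 RPKM), and the nephron genes Umod and Slc12a1 had 0 reads in both. Fibroblast and mural cell markers were at the threshold for 8 of 10 genes in the heart, 1 in the kidney and 3 in the liver library, with summed levels of 159.5, 5.13 and 16.8 RPKM. Cardiomyocyte markers were there for 6 of 10, 2 and 0 genes, with summed levels of 14.6, 5.21 and 0.041 RPKM. The highest of them were Myl2, at 5.98, 3.61 and 0 RPKM in the heart, kidney and liver, and Tnni3, at 3.65, 0.474 and 0 RPKM. Myh6 and Ttn stood at 0.16 and 0.016 RPKM in the heart and 0 in both others. Endothelial markers were at the threshold for 5 of 10 genes in the heart, 2 in the kidney and 8 in the liver library, with summed levels of 11.4, 12.4 and 149.6 RPKM. T and NK cell markers (2, 2 and 4 of 8 genes at the threshold) summed to 1.98, 3.05 and 24.5 RPKM, and B and plasma cell markers (3, 1 and 5 of 6 genes) to 35.9, 168 and 304 RPKM, in the same order. Hepatocyte markers were at the threshold for 2 of 8 genes in the heart, 1 in the kidney and 7 in the liver library, and Alb stood at 0, 0.22 and 64.3 RPKM. Of the 8 genes 6 were highest in the liver and 2 in the heart library. These 2 were Trf, at 388, 382 and 384 RPKM in the heart, kidney and liver, and Hp, at 2.89, 0 and 0.045 RPKM.

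**Figure D1:**
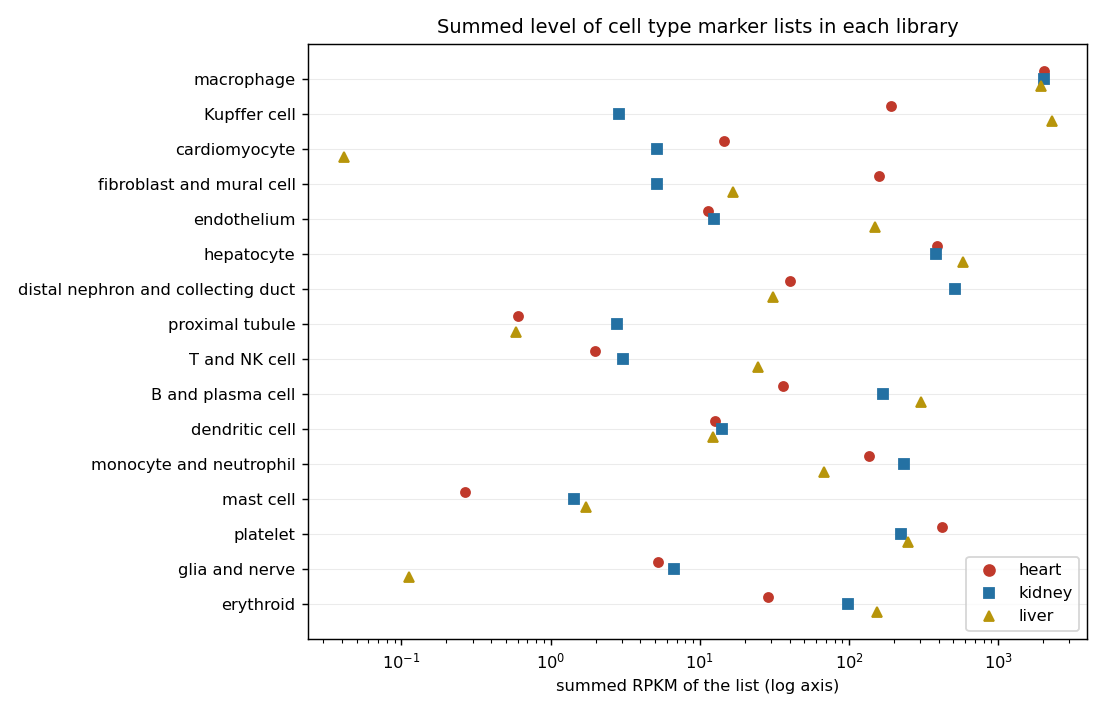
Summed RPKM (log axis) of 16 marker lists in the heart, kidney and liver library, 1 point per library. The macrophage list lies within 1944 to 2029 RPKM in all libraries, while distal nephron, fibroblast and mural cell, and endothelial lists are highest in the kidney, heart and liver library.

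Channel genes were lowly expressed as a group. The highest value over the libraries ran from 0.58 RPKM (Kcnmb3) to 82.1 RPKM (Trpv2), with a median of 2.03 RPKM, against 7.45 RPKM for all 12629 genes. It was under 1 RPKM for 8 genes, under 2 RPKM for 19, and at least 10 RPKM for 8. Potassium channels gave 18 of the 39 genes (12 pore subunits and 6 auxiliary ones), followed by 5 CLC genes, 5 TRP pore genes, 3 connexins and 3 calcium channel genes. By family, 5 of 7 Clcn genes passed, 18 of 93 Kcn genes, 3 of 26 Cacn genes, 3 of 19 connexins, 2 of 14 Scn genes and 0 of 4 Hcn genes. Of the 152 genes that did not pass, 113 had a value of 0 in all libraries. Trpc4ap is a member by its name and encodes a TRPC4-associated adaptor rather than a channel.

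Just inside the threshold stood Kcnmb3 at 0.58 RPKM in the heart from 6 reads, Trpm1 at 0.613 RPKM in the kidney from 54 reads and Kcnt2 at 0.757 RPKM in the heart from 43 reads. Just outside were Kcnn4, the calcium-activated channel KCa3.1 known from activated lymphocytes and macrophages, at 0.478 RPKM in the heart, 0.19 RPKM in the kidney and 0 in the liver library, then Scn2b at 0.466 RPKM and Kcnj9 at 0.433 RPKM, both in the kidney.

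By library, 21 of the 39 genes were at or above 0.5 RPKM in the heart, 30 in the kidney and 24 in the liver, where 81.9%, 87.3% and 79.4% of all genes were. Only 13 were at this level in all 3 libraries (66.5% of all genes), and 16 in exactly 1 library (17.9% of all genes). No reads were found for 7 genes in the heart (7.01% of all genes), 7 in the kidney (6.22%) and 12 in the liver library (12.2%). The same values chose the genes, so nothing is read from these counts. The highest of the 3 values fell in the heart for 8 genes, in the kidney for 16 and in the liver for 15, and for 24.4%, 38% and 37.7% of all genes.

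**Figure D2:**
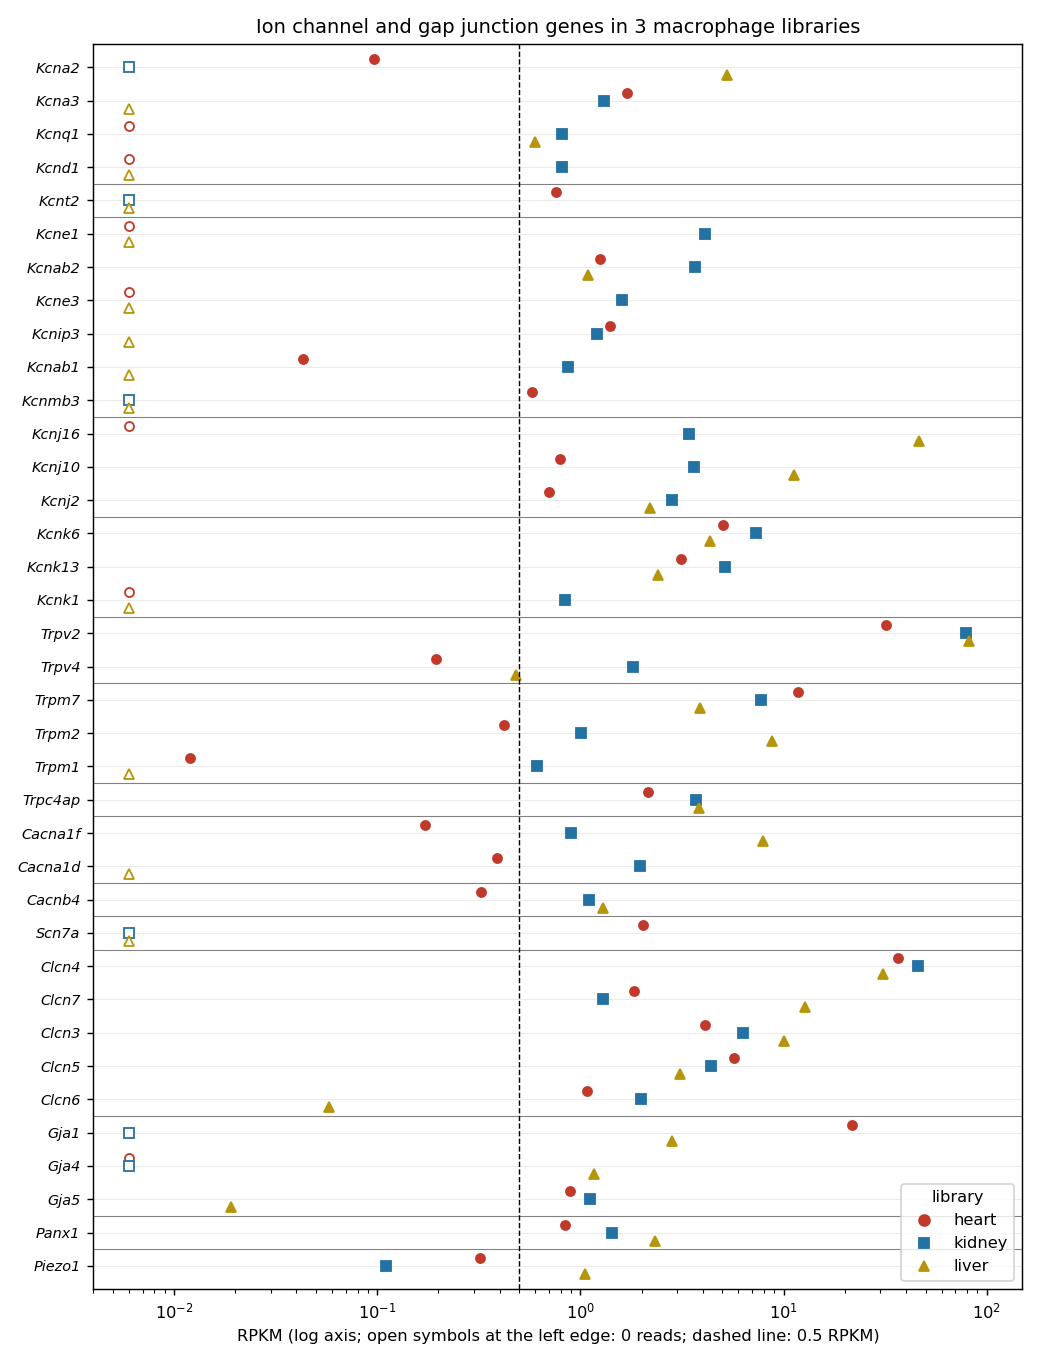
RPKM (log axis) of 37 of the 39 genes in the heart, kidney and liver library, 1 point per library, grouped by channel family, with open symbols at the left edge for 0 reads and a dashed line at 0.5 RPKM. Trpv2 and Clcn4 lie above 30 RPKM in every library, while 14 of the genes drawn lie right of the line in a single library.

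Among TRP channels, Trpv2 was the most abundant member in the kidney and liver libraries and second only to Clcn4 in the heart library. Trpv2 encodes a calcium-permeable cation channel known from macrophage phagocytosis. Its level was 32.0 RPKM in the heart (95% interval 30.3 to 33.8), 78.9 RPKM in the kidney (76.2 to 81.6) and 82.1 RPKM in the liver library (79.5 to 84.8). The heart value was the low one, 2.46-fold below the kidney (2.31 to 2.63) and 2.57-fold below the liver (2.41 to 2.74). The kidney and liver values were within counting error of each other, and the sign of their difference turned with TPM scaling. Trpv2 had 0.463 (heart), 1.23 (kidney) and 1.38 (liver) reads per bp, and the effect of the limit of 3 tags at a position in the deposited values was not tested. It lies on mm10 chr11:62574486-62600305, plus strand. Trpv4, an osmosensitive and stretch-sensitive channel also known from epithelia, stood at 0.194 RPKM in the heart, 1.82 RPKM in the kidney and 0.484 RPKM in the liver library.

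Trpm7, a channel fused to a kinase and permeable to magnesium, ran the other way. It stood at 11.7 RPKM in the heart (11.1 to 12.4), 7.71 RPKM in the kidney (7.2 to 8.25) and 3.86 RPKM in the liver library (3.51 to 4.23), so each value lay outside the counting intervals of the others. Trpm2, which opens with ADP-ribose under oxidative stress and is known from phagocytes, stood at 0.419 RPKM in the heart (44 reads), 1.01 RPKM in the kidney (114 reads) and 8.81 RPKM in the liver library (1070 reads). It was 21-fold below the liver value in the heart (15.5 to 29.1) and 8.72-fold below the liver value in the kidney (7.18 to 10.7). Trpm1, a channel known from retinal bipolar cells and melanocytes, had 1 read in the heart, 54 reads in the kidney and 0 in the liver library. These reads are of the longer of its 2 deposited transcripts, and the shorter one stood at 0 RPKM in every library. The adaptor gene Trpc4ap stood at 2.16, 3.7 and 3.85 RPKM in the heart, kidney and liver.

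The 3 inward rectifier members each had their lowest value in the heart library, also with TPM and median ratio scaling. Kcnj16 and Kcnj10 encode Kir5.1 and Kir4.1, subunits that are known to assemble with each other in kidney tubules and glia. Kcnj16 had 0 reads in the heart, 3.44 RPKM in the kidney (2.98 to 3.96) and 46.3 RPKM in the liver library (44.6 to 48.0). It was at least 825-fold below the liver value in the heart, at least 61.4-fold below the kidney value in the heart, and 13.4-fold below the liver value in the kidney (11.6 to 15.6). Kcnj10 stood at 0.794 RPKM in the heart (0.608 to 1.02), 3.64 RPKM in the kidney (3.25 to 4.07) and 11.3 RPKM in the liver library (10.6 to 12.03). It was 14.3-fold below the liver value in the heart (11.0 to 18.7) and 3.11-fold below the liver value in the kidney (2.73 to 3.54). Both genes thus had the order heart, kidney, liver from low to high. The 5 deposited Kcnj16 transcripts lay between 43.7 and 46.7 RPKM in the liver and between 3.44 and 3.52 RPKM in the kidney. Both are also tubule genes, and the part of tubule cells in their kidney values, beside distal nephron markers at 511 RPKM, was not tested. No exon base of Kcnj16 or Kcnj10 is shared with another annotated gene.

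Kcnj2, which encodes Kir2.1, the classical strong rectifier of macrophages, lies 38.2 kb from Kcnj16 on chromosome 11. Its levels were 0.699 RPKM in the heart (0.526 to 0.909), 2.84 RPKM in the kidney (2.49 to 3.22) and 2.21 RPKM in the liver library (1.91 to 2.53). So Kcnj2 was 4.06-fold below the kidney value in the heart (3.02 to 5.54), and its liver value was near the kidney one, unlike that of its neighbour. Kcnj10 lies on another chromosome, at chr1:172341210-172374085, and Kcnj16 at chr11:110968033-111027967.

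Voltage-gated potassium channel genes were low, and none reached 0.5 RPKM in all libraries. Kcna3, which encodes Kv1.3 of T cells and activated macrophages, stood at 1.69 RPKM in the heart (48 reads), 1.31 RPKM in the kidney (40 reads) and 0 in the liver library. Kcna2, its neighbour 63.4 kb away on chromosome 3, showed the opposite arrangement, with 0.096 RPKM in the heart (16 reads), 0 in the kidney and 5.27 RPKM in the liver library (1022 reads). It was 55.2-fold below the liver value in the heart (33.8 to 96.9) and at least 316-fold below the liver value in the kidney. Kcna2 is known mainly from axons, and no exon base of it is shared with another annotated gene. Kcnd1, an A-type channel gene, had 48 reads in the kidney and 0 in both others. Kcnq1 had 0 reads in the heart, 38 in the kidney and 30 in the liver library, and shares 2.96% of its exon bases with Kcnq1ot1 on the opposite strand.

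Of the tandem-pore potassium channels, Kcnk6 and Kcnk13 were present in every library. Kcnk6 encodes TWIK2, known for potassium efflux in inflammasome activation of mouse macrophages, and stood at 5.05 RPKM in the heart (4.49 to 5.65), 7.34 RPKM in the kidney (6.69 to 8.03) and 4.36 RPKM in the liver library (3.88 to 4.88). Kcnk13 encodes THIK1, which sets the resting potential of microglia, and stood at 3.14 RPKM in the heart (2.64 to 3.7), 5.17 RPKM in the kidney (4.55 to 5.86) and 2.42 RPKM in the liver library (2.02 to 2.88). Both were highest in the kidney. The heart value was 1.16-fold the liver value for Kcnk6 (0.983 to 1.36) and 1.3-fold the liver value for Kcnk13 (1.01 to 1.66), so the interval of the ratio held 1 for Kcnk6 and not for Kcnk13. The third gene of the class, Kcnk1, had 30 reads in the kidney and 0 in both other libraries, and shares 8.01% of its exon bases with a gene on the opposite strand.

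Of the CLC genes, Clcn4 was the most abundant, at 36.4 RPKM in the heart (35.0 to 37.9), 45.8 RPKM in the kidney (44.3 to 47.4) and 30.8 RPKM in the liver library (29.6 to 32.1). Clcn4 shares 11.5% of its exon bases with a gene on the opposite strand, and reads were counted on both strands. Clcn3 stood at 4.09, 6.29 and 10.1 RPKM and Clcn5 at 5.68, 4.4 and 3.09 RPKM in the heart, kidney and liver. All 3 encode chloride and proton exchangers of endosomes. Clcn7, the lysosomal exchanger needed for bone resorption by osteoclasts, stood at 1.83 RPKM in the heart (1.5 to 2.22), 1.29 RPKM in the kidney (1.02 to 1.6) and 12.8 RPKM in the liver library (11.9 to 13.7). It was 6.97-fold below the liver value in the heart (5.7 to 8.61) and 9.91-fold below the liver value in the kidney (7.88 to 12.6). Ostm1, the partner subunit of ClC-7 and no member by name, stood at 6.87, 10.2 and 24.4 RPKM, again highest in the liver library. Clcn6, a late endosomal CLC gene, was lowest in the liver library, at 1.07 RPKM in the heart (80 reads), 2.0 RPKM in the kidney (160 reads) and 0.058 RPKM in the liver library (5 reads).

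Among gap junction genes, Gja1, which encodes Cx43, had its highest value in the heart library. It stood at 21.8 RPKM in the heart (20.5 to 23.2, 978 reads), 0 in the kidney and 2.83 RPKM in the liver library (2.39 to 3.33, 147 reads). It was 7.7-fold above the liver value in the heart (6.47 to 9.23) and at least 351-fold above the kidney value in the heart. Gja1 lies at chr10:56377300-56390419 on the plus strand and shares no exon base with another gene. Fibroblasts and cardiomyocytes also express Gja1, and 9 of 10 markers of either list were highest in the heart library. Dcn, which made up most of the fibroblast and mural cell sum, stood at 125 RPKM in the heart, 0.48 RPKM in the kidney and 8.15 RPKM in the liver. The exceptions were Rgs5, at 0.051 RPKM in the heart, 0 in the kidney and 3.84 RPKM in the liver, and Nppa, at 0.243, 0.301 and 0 RPKM. The part of these cells in the Gja1 level was not tested. Gja5, which encodes Cx40 of arterial endothelium and atrial muscle, had 41 reads in the heart, 55 in the kidney and 1 in the liver library. Gja4, which encodes Cx37 of endothelium, had 0 reads in the heart and kidney and 33 in the liver library (1.17 RPKM). Of the 10 endothelial markers 1 was highest in the heart, 1 in the kidney and 7 in the liver library, and Sox17 had 0 reads in all. Cdh5 stood at 0.766, 0.032 and 52.9 RPKM in the heart, kidney and liver, and Emcn, which ran the other way, at 5.26, 3.96 and 0.908 RPKM. The part of endothelium in the Gja4 value was not tested. The pannexin Panx1, a channel for ATP release, stood at 0.836, 1.43 and 2.34 RPKM in the heart, kidney and liver.

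**Figure D3:**
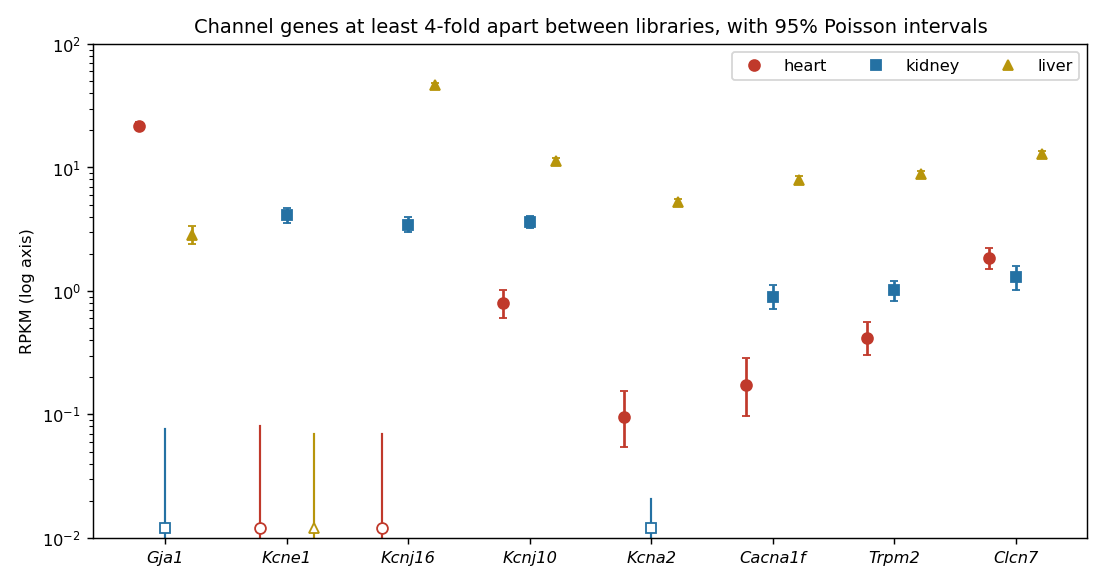
RPKM (log axis) of the 8 genes at least 2 log2 units apart on log2(RPKM + 1) between any pair of libraries, in the heart, kidney and liver library, with exact 95% Poisson intervals of the reads, where open symbols stand for 0 reads and the line above them for the upper limit. Gja1 is highest in the heart at 21.8 RPKM, Kcne1 has reads in the kidney alone at 4.12 RPKM, and the other 6 are highest in the liver library.

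To show the DNA around the starts of members that differ in pattern, the 250 bases before the start are given for Trpv2 (abundant in every library), Gja1 (heart), and Kcnj16 and Clcn7 (liver). They come from RefSeq on GRCm38.p6, run 5′ to 3′ on the strand of the gene, and capitals mark motif matches.
Trpv2 (chr11:62574236-62574485, plus strand): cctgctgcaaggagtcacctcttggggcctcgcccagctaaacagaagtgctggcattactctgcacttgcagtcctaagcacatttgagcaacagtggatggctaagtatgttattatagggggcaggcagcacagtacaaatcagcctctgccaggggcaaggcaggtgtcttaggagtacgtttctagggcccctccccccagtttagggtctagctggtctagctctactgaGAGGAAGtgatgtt
Gja1 (chr10:56377050-56377299, plus strand): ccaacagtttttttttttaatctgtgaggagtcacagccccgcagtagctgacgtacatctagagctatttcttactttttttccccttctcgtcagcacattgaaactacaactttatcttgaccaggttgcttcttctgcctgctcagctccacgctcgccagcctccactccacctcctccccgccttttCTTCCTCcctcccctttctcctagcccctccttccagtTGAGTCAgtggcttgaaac
Kcnj16 (chr11:110967783-110968032, plus strand): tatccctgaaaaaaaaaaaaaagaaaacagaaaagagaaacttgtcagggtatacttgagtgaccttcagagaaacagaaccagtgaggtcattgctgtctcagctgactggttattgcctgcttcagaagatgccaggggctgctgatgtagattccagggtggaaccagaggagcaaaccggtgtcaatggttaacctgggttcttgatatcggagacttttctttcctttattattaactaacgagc
Clcn7 (chr17:25133141-25133390, plus strand): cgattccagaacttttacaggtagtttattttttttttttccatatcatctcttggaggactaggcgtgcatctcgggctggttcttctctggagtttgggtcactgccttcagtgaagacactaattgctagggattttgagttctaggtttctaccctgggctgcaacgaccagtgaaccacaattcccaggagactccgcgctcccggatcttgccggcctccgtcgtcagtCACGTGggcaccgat
The motifs searched, on both strands, were GAGGAAG for PU.1-type ETS factors, TGANTCA for AP-1, CACGTG for the E-box and TATAAA for the TATA box, and no match overlapped another in these windows. The Trpv2 window held GAGGAAG 14 bases before the start. The Gja1 window held the reverse complement of GAGGAAG 57 bases and TGANTCA 19 bases before the start. The Clcn7 window held CACGTG 15 bases before the RefSeq start, which lies 3 bases from the deposited one, and the Kcnj16 window held no match. Windows were found for 33 of the 39 genes, of which 5 held GAGGAAG, 6 CACGTG, 1 TGANTCA and 2 TATAAA. Among 9405 windows of genes at the same level the shares were 11.2% for GAGGAAG, 8.57% for CACGTG, 4.52% for TGANTCA and 6.96% for TATAAA, against 15.2%, 18.2%, 3.03% and 6.06% of the 33. A match describes letters in this window and is not a site of binding.

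Calcium and sodium channel genes were mostly low. Cacna1f, the pore subunit Cav1.4 known from photoreceptors and T cells, stood at 0.172 RPKM in the heart (15 reads), 0.897 RPKM in the kidney (84 reads) and 7.95 RPKM in the liver library (802 reads). It was 46.2-fold below the liver value in the heart (27.8 to 82.9) and 8.87-fold below the liver value in the kidney (7.08 to 11.2). Of the 8 T and NK cell markers 1 was highest in the heart, 2 in the kidney and 4 in the liver library, and 1 had 0 reads in all. Cd3g stood at 16.7 RPKM in the liver and 0 in both others, whereas Lck stood at 0.705 RPKM in the heart, 0.447 RPKM in the kidney and 0 in the liver, and the part of such cells in the Cacna1f level was not tested. Cacna1d, which encodes Cav1.3, had 51 reads in the heart, 279 in the kidney and 0 in the liver library. It shares 4.67% of its exon bases with Chdh on the opposite strand. The auxiliary subunit gene Cacnb4 stood at 0.326, 1.1 and 1.3 RPKM in the heart, kidney and liver, and shares 16% of its exon bases with a gene on the opposite strand. Scn7a, a sodium-sensing channel known from glia and Schwann cells, had 214 reads in the heart (2.03 RPKM) and 0 in both others, at least 82.6-fold above the liver value in the heart and at least 76.7-fold above the kidney value. Glia and nerve markers were at the threshold for 2 of 5 genes in the heart, 1 in the kidney and 0 in the liver library, with summed levels of 5.23, 6.68 and 0.112 RPKM. S100b and Sox10 had 0 reads in every library, and the part of such cells in the Scn7a level was not tested. Piezo1, the stretch-activated channel, stood at 0.322 RPKM in the heart, 0.11 RPKM in the kidney and 1.05 RPKM in the liver library, and shares 24.6% of its exon bases with Ctu2 on the opposite strand.

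Of the 6 auxiliary subunit genes of potassium channels, Kcne1, Kcne3 and Kcnab1 passed the threshold through the kidney library alone. Kcne1, the small partner of KvLQT1 (Kcnq1), stood at 4.12 RPKM in the kidney (3.57 to 4.73, 202 reads) and had 0 reads in both others. It was at least 62.6-fold below the kidney value in the heart and at least 72.5-fold above the liver value in the kidney. Kcne3, another partner of Kcnq1 known from epithelia, had 33 reads in the kidney and 0 in both others. Kcnab2, a cytoplasmic beta subunit, was present in all libraries, at 1.24 RPKM in the heart, 3.68 RPKM in the kidney and 1.09 RPKM in the liver. Its relative Kcnab1 had 2 reads in the heart, 44 in the kidney and 0 in the liver library. Kcnip3, a calcium sensor also called DREAM, had 59 reads in the heart, 55 in the kidney and 0 in the liver library. Kcnmb3, named as a beta subunit of BK channels, had 6 reads in the heart and 0 in both others. The sodium-activated pore gene Kcnt2 had 43 reads in the heart and 0 in both others.

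The 16 genes at the threshold in 1 library alone passed through that library, so their number in each is a description. There were 8 in the kidney (Cacna1d, Kcnab1, Kcnd1, Kcne1, Kcne3, Kcnk1, Trpm1 and Trpv4), 3 in the heart (Kcnmb3, Kcnt2 and Scn7a) and 5 in the liver, among them Gja4, Kcna2 and Piezo1. Several of the 8 are known from renal tubule cells of the mouse, such as Kcne1, Kcnk1 and Trpv4. The 11 distal nephron markers, all present in that library, summed to 511 RPKM, with Umod at 215 RPKM and Slc12a1 at 63.4 RPKM. Of 6 proximal tubule markers 3 were at the threshold, with a summed level of 2.77 RPKM in the kidney, against 0.607 RPKM in the heart and 0.587 RPKM in the liver. The part of tubule cells in these 8 values was not tested.

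On log2(RPKM + 1), a difference of at least 2 units, or 4-fold on this scale, was used to count genes, and a gene under 3 RPKM cannot reach it against 0. For heart minus liver, 1 gene was higher (Gja1, against 4.85% of all genes) and 6 were lower (against 6.49%), namely Kcnj16, Cacna1f, Trpm2, Kcnj10, Kcna2 and Clcn7. For heart minus kidney, 1 was higher (Gja1, against 2.18% of all genes) and 2 were lower (Kcne1 and Kcnj16, against 4.64%). For kidney minus liver, 1 was higher (Kcne1, against 6.88%) and 5 were lower (Kcnj16, Kcna2, Clcn7, Trpm2 and Cacna1f, against 4.64%). As shares of the 39, these are 2.56% higher and 15.4% lower for heart minus liver, 2.56% and 5.13% for heart minus kidney, and 2.56% and 12.8% for kidney minus liver. Against both other libraries, 1 gene was higher in the heart (1.14% of all genes), 1 in the kidney (1.95%) and 5 in the liver (2.95%). The comparisons share libraries, so these counts are not independent of each other. The values compared also chose the genes, so nothing is read from the shares. Endothelial, hepatocyte, T and NK cell, and B and plasma cell markers also had their highest summed level in the liver library. Of the genes at least 2 log2 units apart in any pair, 6 were highest there, and the part of such cells in them was not tested.

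**Figure D4:**
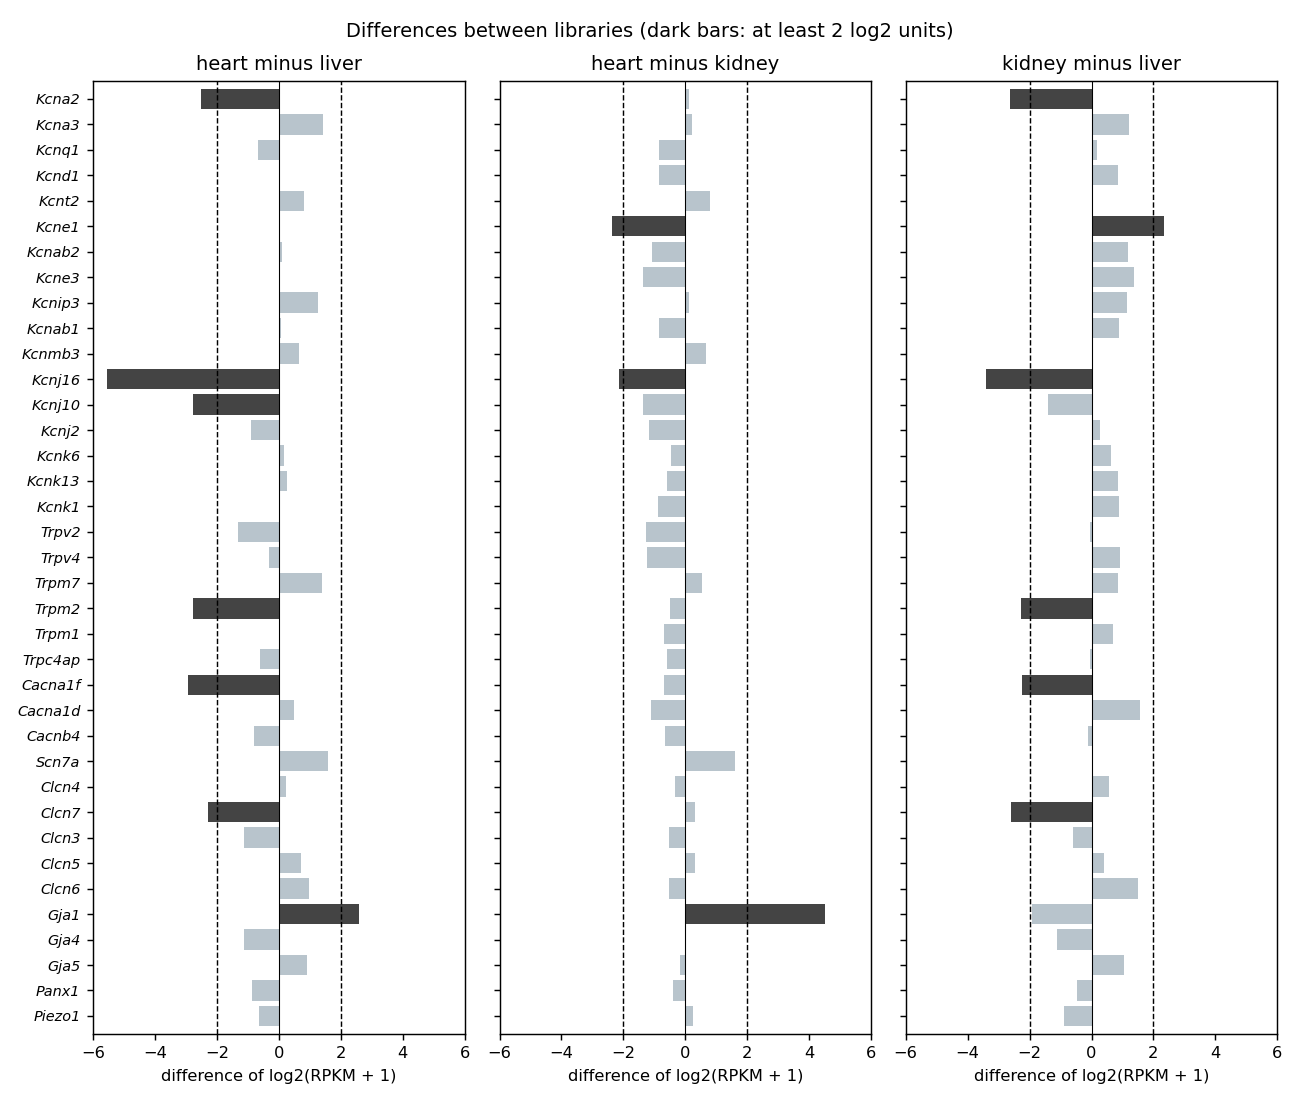
Difference of log2(RPKM + 1) for 37 of the 39 genes, with panels for the heart and liver, the heart and kidney, and the kidney and liver libraries (the first minus the second), 1 bar per gene, with dark bars at 2 log2 units or more and dashed lines at that limit. Dark bars number 7, 3 and 6, and Kcnj16 passes the limit in every panel.

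With a pseudocount of 0.1, which lets lower values differ, the counts were larger among members and among all genes. A gene at the threshold of 0.5 RPKM in 1 library and without reads in the other then already passes the limit. Of the members 41.0% were at the threshold in exactly 1 library, against 17.9% of all genes, so nothing is read from the larger shares. For heart minus liver 9 genes were higher and 9 lower (23.1% each, against 15.4% and 14.5% of all genes). For heart minus kidney 5 were higher and 11 lower (12.8% and 28.2%, against 7.78% and 14.7%). For kidney minus liver 11 were higher and 9 lower (28.2% and 23.1%, against 19.3% and 10.2%). On the main scale the median difference of the 39 genes came to 0.00 (heart minus liver), -0.52 (heart minus kidney) and 0.18 (kidney minus liver), beside -0.09, -0.21 and 0.05 for all genes.

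**Figure D5:**
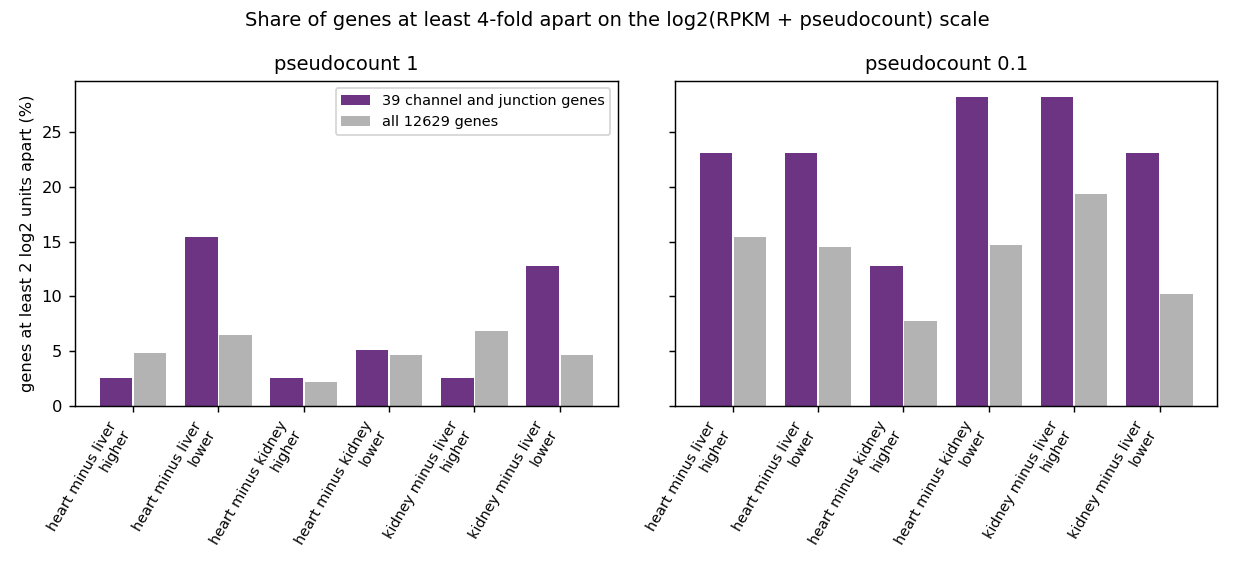
Percent of the 39 channel and junction genes and of all 12629 genes that were at least 2 log2 units apart, by comparison and direction, with a pseudocount of 1 (left) and 0.1 (right). At a pseudocount of 1 the share of members lies furthest above that of all genes where the liver is the higher library, 15.4% against 6.49% for the heart and 12.8% against 4.64% for the kidney. The same values chose the genes, so nothing is read from these shares. With TPM, 6 members were higher and 7 lower for heart minus liver, and 8 and 7 for kidney minus liver. At a pseudocount of 0.1 the share of members lies furthest above for genes lower in the heart than the kidney, 28.2% against 14.7%, and lies above in every comparison. There a gene that passed the filter through 1 library, without reads in the other, already passes the limit, so nothing is read from this excess.

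Channels and transporters outside these names, 80 genes in 13 lists, gave the wider setting. Of these 50 were at the threshold in at least 1 library. By the same limit 1 was higher and 1 lower for heart minus liver, 0 higher and 6 lower for heart minus kidney, and 6 higher and 2 lower for kidney minus liver. The proton channel gene Hvcn1 stood at 0.448 RPKM in the heart, 10.2 RPKM in the kidney and 0.236 RPKM in the liver library. Mcoln2, a lysosomal TRP channel gene, stood at 1.05 RPKM in the heart, 0 in the kidney and 23.4 RPKM in the liver, whereas its relative Mcoln3 had reads in the kidney alone (4.85 RPKM). Best1, a bestrophin, stood at 12.1, 6.16 and 1.27 RPKM in the heart, kidney and liver. The tubule genes Scnn1g (4.76 RPKM) and Aqp3 (14.1 RPKM) had reads in the kidney alone. The pump subunit gene Atp1b1 stood at 1.02, 17.2 and 1.83 RPKM, and its relative Atp1b3 at 39.5, 16.9 and 72.2 RPKM, in the heart, kidney and liver.

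P2rx4 and P2rx7, ATP-gated cation channels known from macrophages, stood at 29.7 and 20.7 RPKM in the heart, 40.6 and 35.0 RPKM in the kidney, and 11.1 and 8.8 RPKM in the liver. Both were lowest in the liver library. None of the store-operated calcium entry genes (5), the purinergic channels (4 at the threshold) or the mitochondrial uniporter genes (4) was 4-fold apart on this scale in any pair. All 5 store-operated genes, Orai1 to Orai3, Stim1 and Stim2, were at the threshold in every library.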

How the data were processed

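RNA of sorted heart, kidney and liver macrophages was amplified with a low-input kit, per the labels' protocols, and CASAVA, STAR and mm10 are named in the submitters' processing notes without versions. The deposited RPKM were made by the authors with HOMER analyzeRepeats.pl over exons on both strands, scaled to 1000000 reads, with a limit of 3 tags at a position, per the file headers, whose command line asks for RPKM while the column names say FPKM. The values times exon length summed to 1000000 in each library. A limit of this kind drops duplicate reads and can lower the values of densely read genes.

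For each symbol the longest coding transcript was kept. Read numbers were recovered from the step of low values: all 14395 (heart), 13147 (kidney) and 10952 (liver) values checked lay within 0.1 of a whole read, and 3 reads on 2000 bp correspond to 0.104, 0.0965 and 0.0896 RPKM. Differences were taken on log2(RPKM + 1) among genes reaching 0.5 RPKM in any library, in Python 3.11.15 with pandas 2.3.3 and scipy 1.17.1. The counting rule was tested on simulated data with large changes set in abundant genes alone. That test does not cover the low levels of most members. Exon overlap came from GENCODE M21, in which all 39 genes were found. Alternatives were other pseudocounts, scalings, filters and transcripts, and leaving out genes with over 10% shared exon bases.

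The members and gene lists were chosen with earlier results of these data known. Genes named singly were the 10 most abundant members, all at least 2 log2 units apart, the leading gene of each class, those at the threshold, and up to 4 genes of each companion list. Members and companion genes outside this rule were named after their values were seen. Some genes, members among them, are counted but not reported singly here.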

Additional observations from a re-analysis of the deposited data

How the results depend on the processing

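With 1 library per tissue, no paired analysis was possible because the groups have no replicates, and no replicate could be left out. Counts of members at least 2 log2 units apart depended on the pseudocount and on TPM, which multiplied the values by 3.64 (heart), 3.49 (kidney) and 3.21 (liver), so that a pseudocount of 1 counts for less. Genes higher for heart minus liver numbered 1 in the main comparison, 9 with a pseudocount of 0.1, 3 with 0.5 and 6 with TPM. For heart minus kidney, 1 was higher and 2 lower, against 5 and 11 with a pseudocount of 0.1 and 2 and 4 with TPM, and 2 were higher with 0.5. For kidney minus liver, 1 was higher and 5 lower, against 11 and 9 with a pseudocount of 0.1, 4 higher with 0.5 and 8 higher with TPM. The median for heart minus liver was 0.00, and -0.31 with a filter of 1 RPKM (31 genes). For heart minus kidney it was -0.52, and -0.75 and -0.66 with pseudocounts of 0.1 and 0.5, -0.65 with TPM, -0.36 with median ratio scaling and 0.00 with no filter (191 genes). For kidney minus liver it was 0.18, and 0.35 with a pseudocount of 0.1, 0.40 with TPM, 0.00 with a filter of 1 RPKM and 0.00 with no filter. Median ratio scaling moved the median of all genes by 0.21 for heart minus kidney, and TPM by 0.12 for kidney minus liver. All 16 differences of at least 2 log2 units among the 22 genes tracked singly stayed at that size with a pseudocount of 0.1, TPM, median ratio scaling and the transcript of highest mean RPKM, and none of the 16 changed sign. Below that limit, TPM turned the sign of Trpv2 and Trpc4ap for kidney minus liver. Depth limits values under 10 reads, such as Kcnmb3 with 6.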
